A study of Rattus norvegicus with 8 samples.

Results

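Apolipoproteins are the protein coat of plasma lipoproteins, the particles in which the liver and gut ship triglyceride and cholesterol through the blood. Lipases in the plasma compartment then release fatty acids from these particles, and receptors on the cell surface bring the remnants into cells. The liver is the main source of very-low-density lipoprotein (VLDL), and it needs phosphatidylcholine, a choline lipid, to coat and secrete it.

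The 6 genes described here were 3 apolipoprotein genes (Apoa2, Apoc3 and Apoh), 2 lipase genes (the hepatic lipase Lipc and the lipoprotein lipase Lpl) and the VLDL receptor gene Vldlr. They were chosen by gene name, each had 1 line, and they were 6 of the 2462 genes in the authors' deposited table. RNA had been sequenced from the livers of 8 wild type Fischer 344 (F344) rats aged 1 year. Of these, 4 received CSAA, an amino acid-defined diet with sufficient choline, and 4 received CDAA, the corresponding diet deficient in choline, under which the rats had hepatocellular carcinoma. The labels give neither the sex of the rats nor whether tumour nodules were dissected from the surrounding liver, so the share of tumour tissue in the CDAA samples is not known.

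The authors' deposited table compares the diet groups and holds no value for a single rat. Levels are therefore 1 pooled value for each diet group, in FPKM (fragments per transcript length and library size), without a spread. Fold changes are those of the authors' DESeq2 model with its standard error (SE), and 95% intervals were computed from that SE. Every gene in the authors' deposited table had passed an adjusted p of 0.01 in DESeq2, edgeR and Cufflinks. From the authors' raw and adjusted p-values, DESeq2 had adjusted over 16076 genes, so the 2462 genes of the table were 15.3% of them. Of the same 16076 genes, 8.75% were in the table as higher and 6.56% as lower in CDAA. All 6 lipoprotein genes are in the table because they were picked from it, so nothing is read from their presence. Because the RNA came from liver tissue and not from sorted cells, fewer cells of a type and less RNA per cell cannot be told apart.

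The 4 genes made mainly by hepatocytes fell and the other pair rose. Apoa2, Apoc3, Apoh and Lipc were abundant in CSAA, between 359 and 6253 FPKM in the authors' deposited table, and all 4 were lower in CDAA. Lpl and Vldlr were scarce in CSAA, at 1.958 and 0.247 FPKM in the authors' deposited table, and both were higher in CDAA. This split ran along the split of the whole table by abundance in CSAA. Of the 321 table genes with at least 100 FPKM in CSAA, 98.1% were lower in CDAA. Of the 987 genes under 2 FPKM in CSAA, 96.1% were higher. Both limits were set after the values were seen. The CSAA level is one side of the fold, and every table gene had passed an adjusted p of 0.01. A gene under 2 FPKM in CSAA had little room to pass by falling, so the filter may largely fix its direction. Nothing is therefore read from Lpl and Vldlr lying on the higher side.

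**Figure D1:**
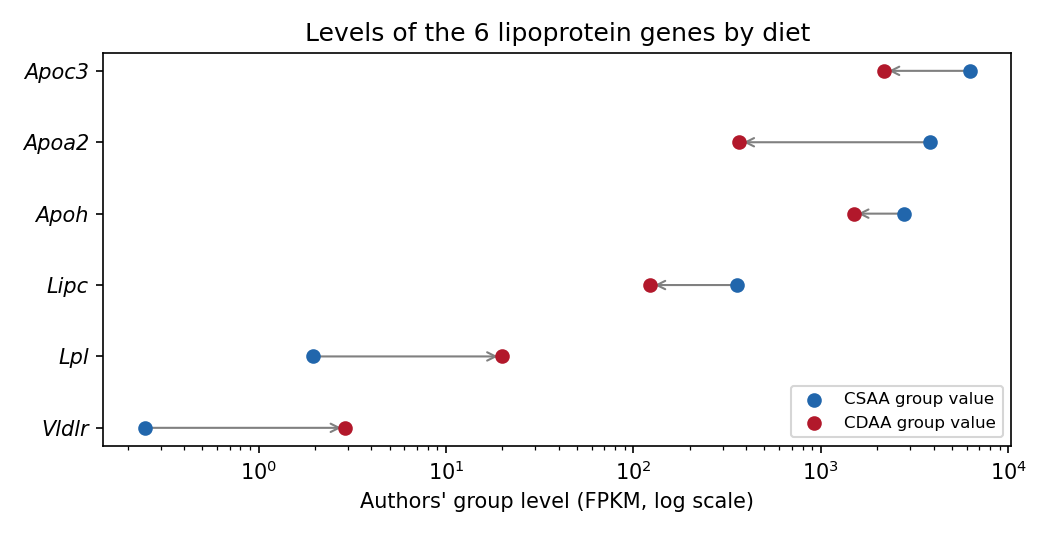
Level of each gene in the CSAA group (blue) and the CDAA group (red), in the authors' pooled FPKM on a log axis, with an arrow from CSAA to CDAA. Apoc3 is the highest in both groups, from 6253 to 2187 FPKM, and Vldlr the lowest, from 0.247 to 2.91 FPKM.

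Apoa2 encodes apolipoprotein A-II, a major protein of high-density lipoprotein (HDL). Its level was 3809 FPKM on CSAA and 367 FPKM on CDAA per the authors' deposited table, so 9.64% of the CSAA level was left. The authors' DESeq2 log2 fold change in that table was -3.13 ± 0.39 (SE), or 8.73-fold lower with a 95% interval of 5.12 to 14.9 (DESeq2 adjusted p = 6.47e-14). Apoa2 (ENSRNOG00000003500) maps to rn6 chromosome 13, between 89597137 and 89598802. Its fall was the 35th largest of the 1055 falls in the authors' deposited table, and its level moved from the 6th highest of all table genes in CSAA to the 34th highest in CDAA. The SE of Apoa2 was also large for so abundant a transcript. Of the 149 other table genes whose mean count was within 2-fold of that of Apoa2, 96.6% had a smaller SE, with a median of 0.23 on the log2 scale.

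Apoc3 encodes apolipoprotein C-III, which inhibits lipoprotein lipase and slows the clearance of triglyceride-rich particles. It was at 6253 FPKM on CSAA and 2187 FPKM on CDAA, by the authors' deposited table. The log2 fold change there was -1.47 ± 0.27 (SE), or 2.77-fold lower with a 95% interval of 1.91 to 4.02 (DESeq2 adjusted p = 9.68e-07). Despite this fall Apoc3 remained among the most abundant transcripts of the table, the 4th highest in CSAA and the 5th highest in CDAA. Apoc3 (ENSRNOG00000047503) maps to rn6 chromosome 8, between 50529317 and 50531498.

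Apoh encodes the phospholipid-binding plasma protein also called beta-2-glycoprotein I. The authors' deposited table put it at 2787 FPKM on CSAA and 1498 FPKM on CDAA, so 53.7% of the CSAA level was left. The log2 fold change there was -0.89 ± 0.19 (SE), or 1.85-fold lower with a 95% interval of 1.43 to 2.39 (DESeq2 adjusted p = 2.09e-05). This was the smallest change of the 6 genes, and the only one under 2-fold. Apoh (ENSRNOG00000003566; chromosome 10, 96639923 to 96653938, rn6) passed the authors' Cufflinks test with q = 0.00941, against 0.000381 for each of the other 5 genes in the authors' deposited table. As Apoa2 fell further, the order of the 2 genes changed. Apoa2 was 1.37 times Apoh in FPKM in CSAA and 0.245 times Apoh in CDAA. Apoc3, which was 1.64 times Apoa2 in CSAA, was 5.96 times Apoa2 in CDAA. These ratios come from pooled group levels in the authors' deposited table and have no error.

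Lipc encodes hepatic lipase, which hepatocytes secrete and which acts on the lipids of remnant particles and HDL at the sinusoidal surface. Its level was 359 FPKM on CSAA and 123 FPKM on CDAA per the authors' deposited table, so 34.4% was left. The log2 fold change there was -1.51 ± 0.23 (SE), or 2.84-fold lower with a 95% interval of 2.09 to 3.87 (DESeq2 adjusted p = 6.11e-10). Lipc (ENSRNOG00000060338) maps to rn6 chromosome 8, between 77272569 and 77398248.

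Lpl encodes lipoprotein lipase, which hydrolyses the triglyceride of VLDL and chylomicrons at the capillary wall and is known mainly from fat, muscle and macrophages rather than adult hepatocytes. Its level was 1.958 FPKM on CSAA and 19.9 FPKM on CDAA, per the authors' deposited table. The log2 fold change there was 3.18 ± 0.31 (SE), or 9.04-fold higher with a 95% interval of 5.90 to 13.9 (DESeq2 adjusted p = 6.47e-22). Lpl (ENSRNOG00000012181; chromosome 16, 22537055 to 22561496, rn6) had the 139th largest of 1407 rises. Its SE exceeded that of 88.3% of the 582 other table genes with a mean count within 2-fold of its own. As for Apoa2, the filter of the table favours small SEs among such genes, so nothing more is read from that share. The lipases thus moved in opposite directions: Lipc was 183 times Lpl in FPKM in CSAA and 6.20 times Lpl in CDAA, from the group levels in the authors' deposited table.

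Vldlr encodes the VLDL receptor, which binds triglyceride-rich particles and is known mainly from heart, muscle and fat, with little in normal liver. The authors' deposited table put it at 0.247 FPKM on CSAA and 2.91 FPKM on CDAA. The log2 fold change there was 3.31 ± 0.30 (SE), or 9.95-fold higher with a 95% interval of 6.58 to 15.1 (DESeq2 adjusted p = 2.05e-25). Vldlr (ENSRNOG00000027491) maps to rn6 chromosome 1, between 245237735 and 245269205. It was the least abundant of the 6 genes in both groups. Its mean normalised count of 83.5 over all rats and its DESeq2 fold correspond to mean normalised counts of about 15.3 in CSAA and 152 in CDAA. The same arithmetic gave 121 and 1093 for Lpl and 46183 and 24941 for Apoh. Vldlr therefore rested on the lowest normalised counts of the 6 genes. Lrp1, the gene of a large remnant receptor, was 623 times Vldlr in FPKM in CSAA and 24.1 times Vldlr in CDAA in the authors' deposited table.

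**Figure D2:**
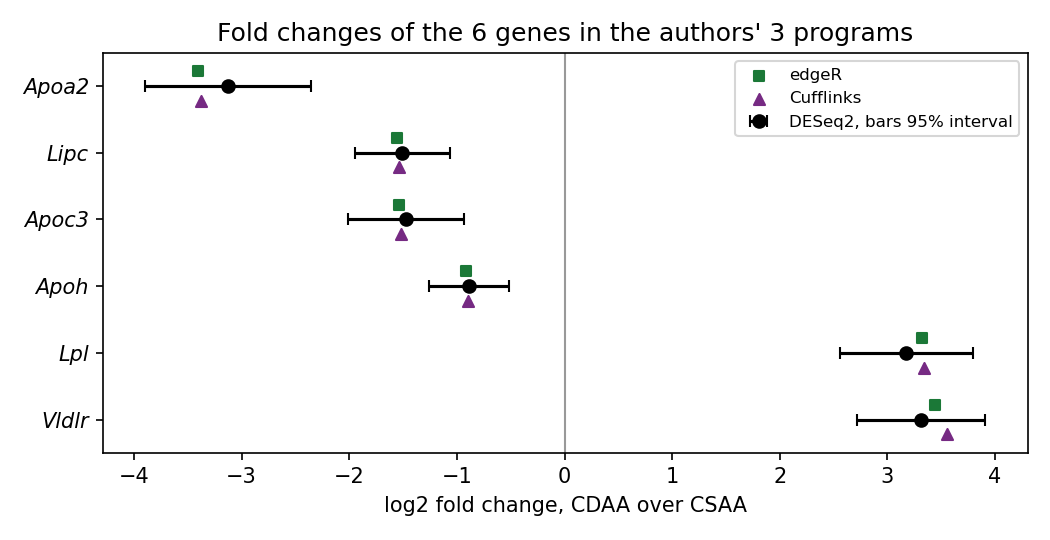
Log2 fold change of each gene, CDAA over CSAA, from the authors' DESeq2 (black points, bars are 95% intervals computed from the SE), edgeR (green squares) and Cufflinks (purple triangles) columns. The edgeR and Cufflinks values lie inside the DESeq2 interval for all 6 genes, and Apoa2 is at -3.13 with DESeq2 and -3.41 with edgeR.

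The order of the folds from the deepest fall to the steepest rise was Apoa2, Lipc, Apoc3, Apoh, Lpl and Vldlr. Of the 15 pairs among the 6 genes, 11 had 95% intervals that did not overlap. Among neighbours in that order, Apoa2 and Lipc were apart, and so were Apoh and Lpl. Lipc and Apoc3 differed by 0.04 on the log2 scale with overlapping intervals, and the intervals of Apoc3 and Apoh and those of Lpl and Vldlr overlapped too. These intervals are a description; the difference between genes was not tested, since the genes were measured in the same rats. All 6 genes had the same sign in the authors' 3 programs, and the largest difference from a DESeq2 fold was 0.28 on the log2 scale. The differences were one-sided: for all 6, both the edgeR and the Cufflinks fold were larger in size than the DESeq2 fold. Ranked by the authors' DESeq2 p over the 16076 genes, Vldlr was 108th, Lpl 147th, Apoa2 387th, Lipc 767th, Apoc3 1341st and Apoh 1819th. By the edgeR p over 15041 genes the same genes ranked 86th, 150th, 491st, 808th, 1375th and 2256th.

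**Figure D3:**
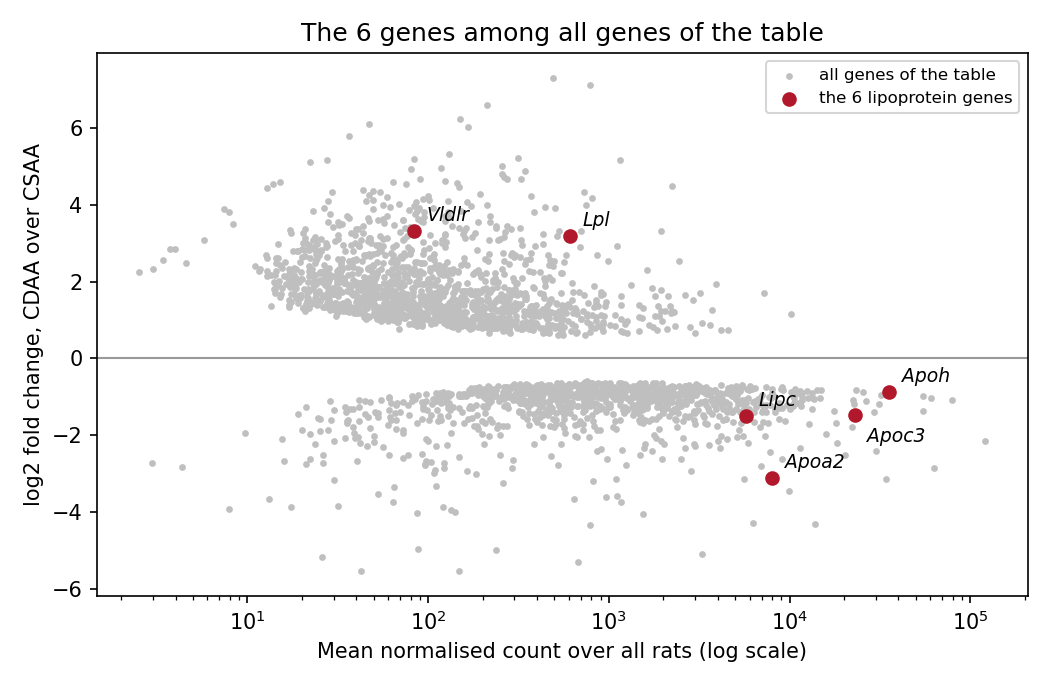
Log2 fold change, CDAA over CSAA, against the mean normalised count over all rats on a log axis, from the authors' DESeq2 columns, for the 2462 genes of the table (grey) and the 6 lipoprotein genes (red). Apoh and Apoc3 lie at the abundant end among the falls, and Lpl and Vldlr among the rises at mean counts of 607 and 83.5.

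Start-site sequences are shown for the members with an entry in the RefSeq promoter table of build GRCr8, which matched 3 of the 6 genes. Lipc and Apoh stand for the falls and Vldlr for the rises. Each window runs from 250 bases before to 50 bases after a RefSeq start. Capitals mark CG dinucleotides, the sites of DNA methylation.
Lipc: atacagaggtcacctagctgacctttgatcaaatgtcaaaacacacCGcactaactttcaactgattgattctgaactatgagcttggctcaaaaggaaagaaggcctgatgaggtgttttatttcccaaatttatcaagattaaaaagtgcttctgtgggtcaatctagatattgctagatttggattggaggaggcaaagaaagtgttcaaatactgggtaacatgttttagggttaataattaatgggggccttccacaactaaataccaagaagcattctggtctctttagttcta
Apoh: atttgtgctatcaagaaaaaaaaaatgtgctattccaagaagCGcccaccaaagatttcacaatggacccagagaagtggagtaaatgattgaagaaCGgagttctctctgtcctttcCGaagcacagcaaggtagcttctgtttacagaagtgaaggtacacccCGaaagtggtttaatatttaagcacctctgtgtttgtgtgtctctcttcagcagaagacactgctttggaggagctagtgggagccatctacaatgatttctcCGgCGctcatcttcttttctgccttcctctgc
Vldlr: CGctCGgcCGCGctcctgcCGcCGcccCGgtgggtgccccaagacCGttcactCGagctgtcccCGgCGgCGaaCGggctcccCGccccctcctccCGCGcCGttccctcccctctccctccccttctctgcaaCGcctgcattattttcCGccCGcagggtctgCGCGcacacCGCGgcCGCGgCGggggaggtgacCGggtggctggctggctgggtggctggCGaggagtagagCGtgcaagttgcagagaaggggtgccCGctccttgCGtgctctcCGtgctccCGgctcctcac
The windows are chr8:80516236-80516535 on the minus strand for Lipc, chr10:93841742-93842041 on the plus strand for Apoh and chr1:234240436-234240735 on the plus strand for Vldlr, all in GRCr8.

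The windows differed in base composition. The Vldlr window was 73.0% G or C with 34 CG dinucleotides, more CG than in 93.2% of the 33469 RefSeq windows. The Lipc window was 38.0% G or C with 1 CG dinucleotide, and 5.47% of windows had fewer. Apoh lay between them at 44.3% and 6 CG dinucleotides, against medians of 51.7% and 7 over all windows.

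Motifs were searched on both strands, and a match describes letters, not a site in use. The shares given are of windows with at least 1 match, over all windows whatever their base composition. They are therefore no yardstick for the number of matches in 1 window. The GC box GGGCGG occurred 3 times in Vldlr, a window rich in G and C, and was present in 33.1% of windows. Lipc held 1 CCAAT (37.5% of windows) and 2 AGGTCA half-sites (16.2% of windows). Of the other motifs, TATAAA (14.2% of windows), ACGTG (19.3%), CACGTG, which contains it (6.42%), and AAGTCCA (3.90%) were found in none of these 3 windows.

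The other genes of lipoprotein transport were taken from 6 lists, written from textbook functions with earlier results of these data known. The lists hold 97 distinct genes, of which 40 were in the authors' deposited table, 34 lower and 6 higher in CDAA. Of the whole table, 42.9% were lower and 57.1% higher. Without the 6 members, 30 genes were lower and 4 higher. Their median log2 fold change was -0.99, against 1.01 over all 2462 genes of the table. The whole table is a poor yardstick for them, since direction in it ran with abundance. Of the 34, 19 had at least 100 FPKM in CSAA and all 19 were lower, beside 98.1% of the table at that level, and their median of -1.10 stood beside -1.15. From 2 to under 100 FPKM, 11 of 13 were lower, beside 60.8% of the table. Under 2 FPKM, both were higher, beside 96.1%. Nothing is read from that class, where a gene had little room to pass the thresholds by falling. At 2-fold or more, 24.9% of the table was lower and 50.2% higher. A gene that has no value here may have missed any of the 3 thresholds, so nothing is said of its change.

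Of 16 apolipoprotein genes, the authors' deposited table held 9, and all of these 9 fell, 8 of them at least 2-fold. All 9 had 476 FPKM or more in CSAA, a level at which nearly the whole table was lower (98.1% from 100 FPKM up). Their median log2 fold change was -1.47, against -1.15 for table genes from 100 FPKM up. Their summed level went from 25394 to 7870 FPKM. Beside Apoa2, the largest falls were those of Apom, an HDL apolipoprotein that carries sphingosine-1-phosphate (-2.64 ± 0.19, SE, from 482 to 75.8 FPKM), and Apoa4 (-2.20 ± 0.24, from 1566 to 329 FPKM), by the authors' deposited table. The interval of Apoa2 overlapped those of Apom and Apoa4 and lay apart from those of the other 6. Apoc3 overlapped 6 of its 8 relatives, among them Apoc1, the most abundant of the 9 at 8201 FPKM on CSAA and 2477 FPKM on CDAA (-1.69 ± 0.26). Apoh, with the smallest fall of the 9, overlapped 5. Apoc2, the activator of lipoprotein lipase, fell (-1.26 ± 0.33), and Apoc3, which inhibits that enzyme, stood at 4.91 times Apoc2 in CSAA and at 4.31 times in CDAA, from FPKM in the authors' deposited table. Apoa5, which promotes lipolysis by lipoprotein lipase, fell by 1.23 ± 0.23 and Apoc4 by 1.23 ± 0.21 on the log2 scale in the authors' deposited table. Apob, the structural protein of VLDL, and Apoa1, the main protein of HDL, were looked up and have no value here, so nothing is said of their change.

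Several of these genes sit beside each other. Apoc3 had 2 table genes within 100 kb, Apoa4 at 5.51 kb and Apoa5 at 27.6 kb, and the authors' deposited table has both as lower too. On chromosome 1, Apoc1 had Apoc4 at 7.07 kb and Apoc2 at 12.5 kb, which fell, and Relb, Bcam and Cblc between 61.8 and 89.4 kb away, which rose by 2.22 ± 0.38, 1.48 ± 0.25 and 3.75 ± 0.48 (SE) in the authors' deposited table. Apoa2 had 5 table genes within 100 kb. The closest, Fcer1g, which encodes a signalling chain of Fc receptors on myeloid cells, rose by 1.61 ± 0.27 at 3.09 kb from Apoa2, and the other 4 fell in the authors' deposited table. The heme synthesis gene Ppox, named here after the values were seen as the one with the largest fall of these 4, was at -1.50 ± 0.18 there. The neighbour of Apoh, Cep112, rose by 0.90 ± 0.28 at 9.80 kb in the authors' deposited table. Lipc, Lpl and Vldlr had no table gene within 100 kb. Direction again ran with level. The falling neighbours of Apoc3 and Apoc1 had at least 100 FPKM in CSAA, where 98.1% of the table was lower. The neighbours of Apoa2 had from 2 to under 100 FPKM, where 60.8% was lower. Relb, Bcam, Cblc and Cep112 were under 2 FPKM, where 96.1% was higher. Nothing is therefore read from the directions of these neighbours.

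Among 16 plasma lipase genes and their regulators, 6 were in the authors' deposited table, with 5 lower and Lpl the 1 riser. The 5 had over 2 FPKM in CSAA. The table was 98.1% lower from 100 FPKM up and 60.8% lower from 2 to under 100 FPKM. Angptl4, a secreted inhibitor of lipoprotein lipase, dropped from 101 to 24.8 FPKM (-2.01 ± 0.26, SE, on the log2 scale) by the authors' deposited table. Lpl was thus 0.0193 times Angptl4 in FPKM in CSAA and 0.802 times in CDAA. Sel1l, part of the endoplasmic reticulum machinery that lets lipoprotein lipase leave the cell, fell (-1.05 ± 0.19), as did the proprotein convertase gene Pcsk5 (-1.39 ± 0.18) in the authors' deposited table. Lcat, which esterifies cholesterol on HDL, had the smallest fall of this list (-0.81 ± 0.26) there.

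The receptors went both ways. Of 20 genes for lipoprotein receptors and their adaptors, 7 were in the authors' deposited table, 4 higher and 3 lower. The whole table was 57.1% higher and 42.9% lower. Direction ran with level here too. Vldlr, Olr1 and Mylip were under 2 FPKM in CSAA, where 96.1% of the table was higher. Nothing is read from their direction. Sort1 rose from 2.53 FPKM. The 3 fallers had over 2 FPKM in CSAA. The table was 98.1% lower from 100 FPKM up and 60.8% lower from 2 to under 100 FPKM. Lrp1 fell from 154 to 70.1 FPKM (-1.10 ± 0.24, SE), per the authors' deposited table. Mylip, a ubiquitin ligase that degrades lipoprotein receptors, rose (1.00 ± 0.22) in the authors' deposited table. Olr1, a receptor for oxidised low-density lipoprotein known from endothelium and macrophages, rose from 0.0706 to 1.63 FPKM (3.89 ± 0.48), per the authors' deposited table, and its interval overlapped that of Vldlr. The sorting receptor gene Sort1 rose by 1.205 ± 0.24 there.

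**Figure D4:**
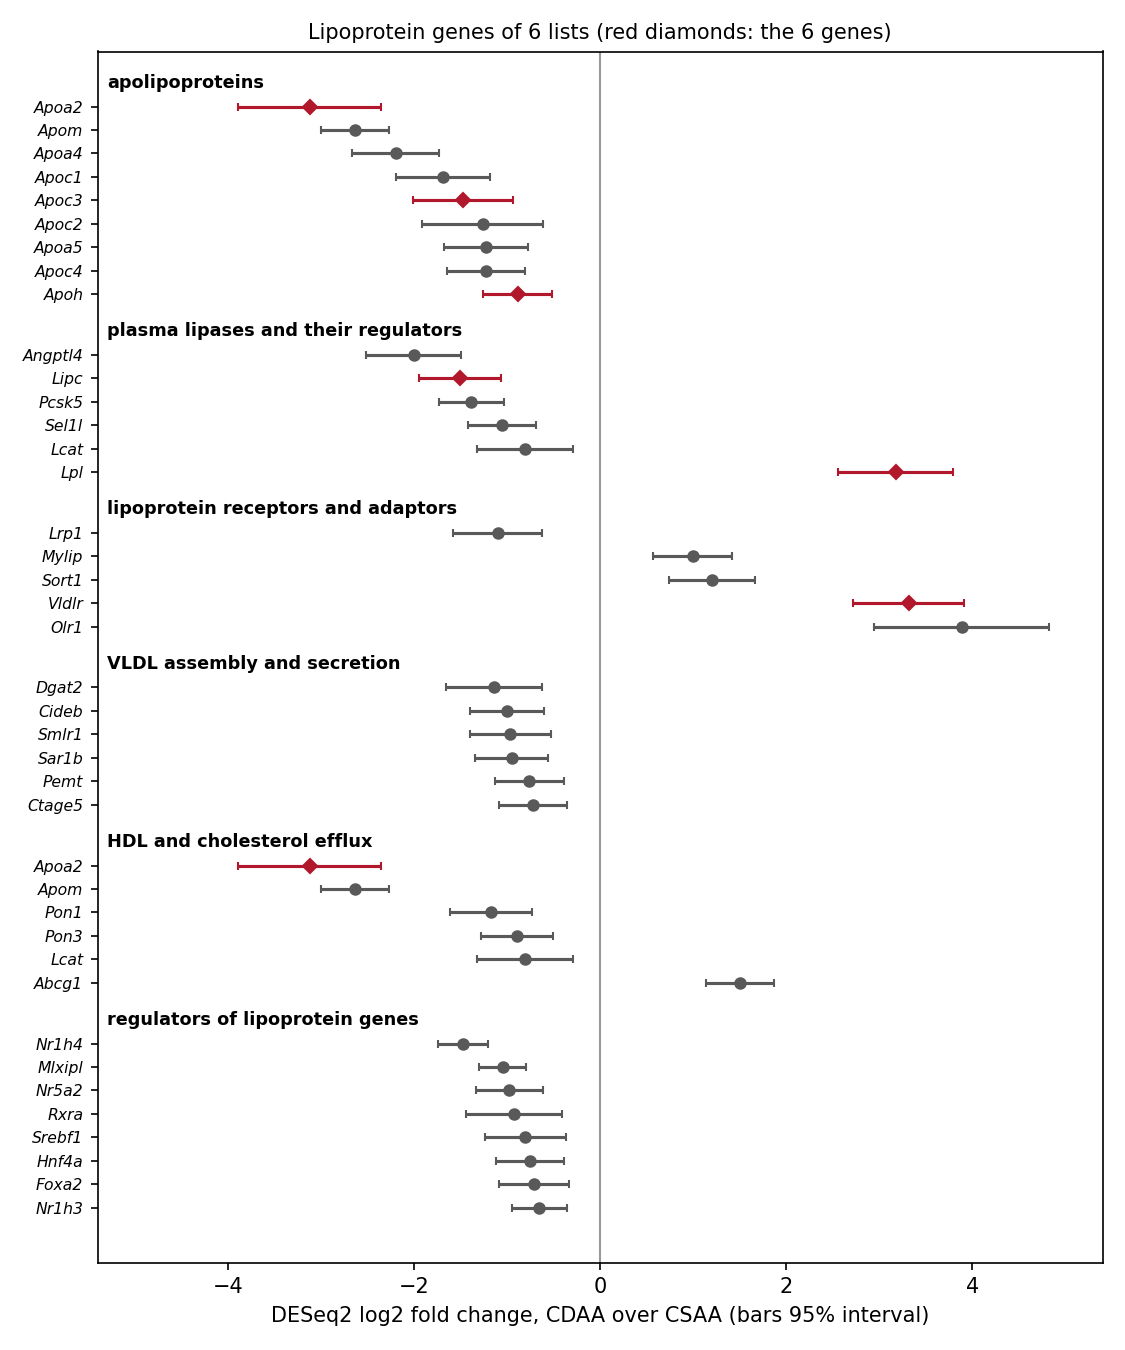
DESeq2 log2 fold change, CDAA over CSAA, with 95% intervals computed from the authors' SE, for genes of the 6 lists that were in the table and are reported here; the 6 members are red diamonds and a gene of 2 lists appears in both. All 9 apolipoprotein genes lie left of 0, and the risers are Lpl, Vldlr, Olr1, Sort1, Mylip and Abcg1.

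In VLDL assembly and secretion, the authors' deposited table held 6 of 18 genes, and all of these 6 fell, 2 of them at least 2-fold. All but Cideb, at 77.1 FPKM, had at least 100 FPKM in CSAA, where 98.1% of the table was lower. Their median log2 fold change was -0.96, against -1.15 for table genes at that level. Dgat2, which makes triglyceride (-1.14 ± 0.27, SE), Cideb, which helps to lipidate VLDL (-1.001 ± 0.20), and Sar1b, a GTPase of the vesicles that carry lipoproteins from the endoplasmic reticulum (-0.95 ± 0.20), were lower in the authors' deposited table. Pemt, which makes phosphatidylcholine without dietary choline, was lower as well (-0.77 ± 0.19), with Smlr1 (-0.97 ± 0.22) and Ctage5, now named Mia2 (-0.72 ± 0.19) by the authors' deposited table. Of 12 genes for HDL and cholesterol efflux, the authors' deposited table held 6, of which 5 fell and 1 rose. The riser was Abcg1, a sterol exporter prominent in macrophages (1.498 ± 0.19). All 5 fallers had at least 100 FPKM in CSAA, the level at which 98.1% of the table was lower. The HDL-bound paraoxonase genes Pon1 (-1.17 ± 0.23) and Pon3 (-0.89 ± 0.20) were among the 5 there. The others, Apoa2, Apom and Lcat, were already counted in the lists above.

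Of 22 regulators of lipoprotein genes, the authors' deposited table held 9, and all of these 9 fell, with a median log2 fold change of -0.93. All 9 had over 2 FPKM in CSAA. Of table genes from 100 FPKM up, 98.1% were lower (median of all at that level -1.15). From 2 to under 100 FPKM, 60.8% were lower (median -0.79). Among the larger falls were those of the bile acid receptor Nr1h4 (-1.48 ± 0.14, SE) and the carbohydrate response factor Mlxipl (-1.05 ± 0.13) in the authors' deposited table. Hnf4a was at -0.76 ± 0.19 and the liver X receptor gene Nr1h3 at -0.65 ± 0.15 there. The falls of these regulators were smaller in size than that of Apoa2, whose interval ended at -2.36; Nr1h4, at -1.48, was close to Apoc3 and Lipc.

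Markers of hepatocytes and of other cell types were looked up as well. Of 13 macrophage markers, the authors' deposited table held 7, and all of these 7 rose, with a summed level of 25.8 FPKM on CSAA and 163 FPKM on CDAA. The lipid-associated macrophage genes Trem2 (3.92 ± 0.51, SE) and Gpnmb (2.94 ± 0.28) and the lysozyme gene Lyz2 (2.68 ± 0.32) were among them in that table. Of 8 bile duct markers it held 6, all higher, with sums of 28.6 FPKM on CSAA and 109 FPKM on CDAA. Of 10 markers of stellate cells and myofibroblasts it held 5, all higher, with sums of 13.4 and 49.5 FPKM. Beside these counts, 57.1% of the whole table was higher in CDAA. Under 2 FPKM in CSAA 96.1% of the table was higher, and from 2 to under 100 FPKM 60.8% was lower. Each of these 3 lists had markers in both ranges. Nothing is read from the direction of those under 2 FPKM, which had little room to pass the thresholds by falling. Adipocyte markers gave 2 of 7, with Fabp4, which macrophages and endothelium also express, higher (3.97 ± 0.33) and Cidec lower (-0.90 ± 0.21) in the authors' deposited table. The defining adipocyte genes Adipoq, Plin1 and Lep were looked up and have no value here. Endothelial markers gave 3 of 10, with Cd34 and Vwf higher and Kdr lower, and their sum was 27.6 FPKM in CSAA and 23.0 in CDAA. Of 10 hepatocyte markers only Ttr was in the authors' deposited table, at 13443 FPKM in CSAA and 6364 in CDAA (-1.08 ± 0.13). The interval of Ttr overlapped those of Apoc3, Lipc and Apoh and lay apart from that of Apoa2. None of the markers found was at 0 in either group. The part of these cell types in the values of Lpl, Vldlr and the 4 falling genes was not tested.

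**Figure D5:**
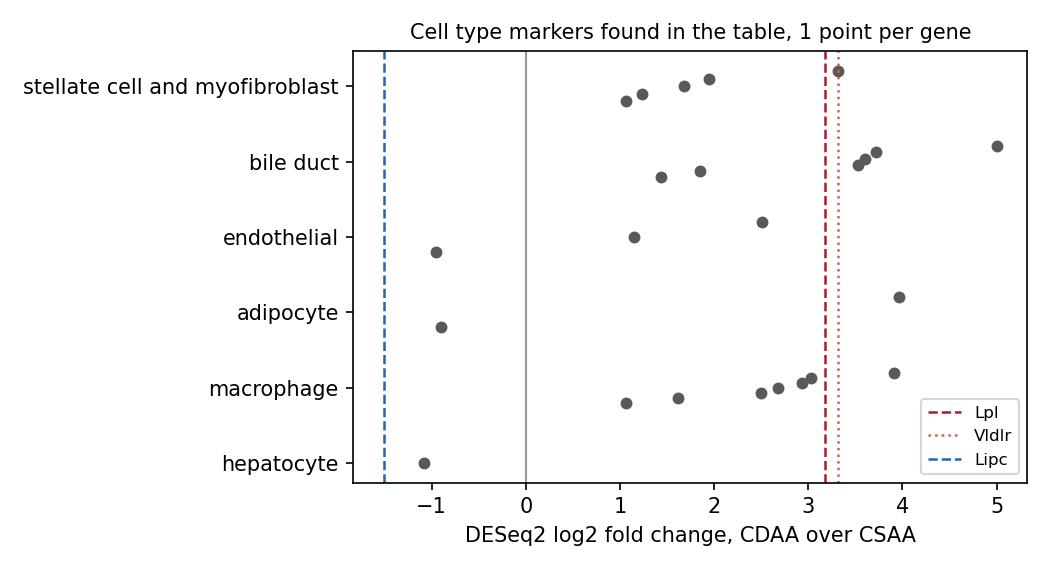
DESeq2 log2 fold change, CDAA over CSAA, of the cell type markers found in the authors' table, 1 point per gene, with dashed or dotted lines at the values of Lipc (-1.51), Lpl (3.18) and Vldlr (3.31). All macrophage, bile duct and stellate cell points lie right of 0, and the hepatocyte marker Ttr lies left of 0.

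The genes most like each member were taken from the 2 closest of 2294 named genes in the plane of the log2 levels of the 2 diet groups. With only 2 points per gene this is a likeness of levels. Closest to Apoc3 were Apoc1, at a distance of 0.43, and the plasma protein gene Ambp, at 0.52. Apoh had the vitronectin gene Vtn (0.70), and Apoa2 had the desaturase gene Scd (0.71) and the C-reactive protein gene Crp (0.83), the latter at -2.42 ± 0.15 (SE) in the authors' deposited table. Lipc was closest to the mitochondrial pyruvate carrier gene Mpc1 and the bile acid importer gene Slc10a1, both at 0.24. Lpl was closest to the sorting nexin gene Snx10 (0.14), which went from 1.94 to 21.9 FPKM, and to Anxa1 (0.36), by the authors' deposited table. Vldlr was closest to the integrin gene Itgb8 (0.19) and the collagen receptor gene Mrc2 (0.22).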

How the data were processed

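Per the labels' protocols, Trizol RNA from frozen liver went into Illumina TruSeq RNA libraries. The submitters' processing notes name FastQC, TopHat2, Cufflinks, DESeq2, edgeR and build rn6. The versions, the counting tool, the annotation and any strand setting are not given there. The deposited table holds, per the file headers, the authors' DESeq2 mean normalised count (a signal), log2 fold change, SE, Wald score and p-values. It also holds the authors' edgeR log2 fold change, mean log2 CPM and p-values, and the authors' Cufflinks group levels, log2 ratio, test score, p-values and q-values, per the file headers. The deposited group levels are taken as FPKM, the unit Cufflinks writes; the header names none. The sign of the authors' DESeq2 fold matched CDAA minus CSAA in the authors' FPKM for 2457 of 2462 genes.

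No value per rat was at hand, so no test across rats was made, depth per rat is unknown and the design without individual values applied. Genes picked for passing 3 tests tend to have overstated folds. Intervals are 95% normal intervals from the authors' SE. The number of genes adjusted over is the ratio of adjusted to raw p at the smallest p, taking the adjustment as Benjamini-Hochberg. Ranks computed from it were whole within 1e-06 of their value for 93.2% of the DESeq2 values and 91.2% of the edgeR values that the authors deposited. Mean normalised counts per diet group were computed from the mean count and the fold with equal groups. List symbols were matched directly or through GRCr8 RefSeq synonyms. Named genes are the members, list genes in the table and the 2 closest genes by level; symbols starting LOC, RGD, AABR, ENSRNOG, Rn50, AC0 or AC1 were left out of the last, and some genes are not reported here. Chromosomal neighbours within 100 kb, the motifs and the level ratios were chosen after values were seen. The members and lists were chosen with earlier results of these data known. The rank and motif steps were tested on simulated data. Software was matplotlib 3.10.9, scipy 1.17.1, numpy 2.4.6, pandas 2.3.3 and Python 3.11.15.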

Additional observations from a re-analysis of the deposited data

How the results depend on the processing

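Of 104 recomputed values, none reversed and 9 moved, the 2 folds and 7 counts given below. A fold counted as moved on the log2(FPKM + 1) scale when it shifted by 1 SE or more, and a count when it changed by over 1.5 times. With edgeR or Cufflinks in place of DESeq2, all 6 members kept their direction, their threshold and their place in the order. On the log2(FPKM + 1) scale Lpl was at 2.82 and Vldlr at 1.65, both still over 2-fold higher. The fold of Vldlr shrank more than that of Lpl, since the added 1 exceeds the CSAA level of Vldlr. When 5 FPKM in the higher group was required, 1 of the 2 rising members and 1 of the 4 rising receptor genes were left. When a 2-fold change was required, 2 falling genes of VLDL assembly, 3 of HDL and efflux and 3 of the regulators were left. With an adjusted p under 0.001 in all 3 programs, 3 of HDL and efflux and 3 of the regulators were left. No paired analysis was possible because the table holds no value per rat; for the same reason, leaving out single rats and other normalizations were not run. The depth of each rat is unknown; Vldlr had the lowest mean normalised count of the 6 (83.5).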
